A study of Mus musculus with 18 samples.

Results

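Major histocompatibility complex (MHC) class I heavy chains, their light chain beta-2-microglobulin, the peptide transporter and the inducible proteasome subunits were followed in cultured mouse skeletal muscle myoblasts. The members are 10 named genes, H2-K1, H2-D1, H2-Q6, H2-Q8, B2m, Tap1, Tap2, Tapbp, Psmb8 and Psmb9, and every probe of the Illumina MouseWG-6 bead array annotated to 1 of them was taken. They are 10 of 19057 genes with a probe of their own and had 21 of the 45281 probes, and 19 of these 21 were detected on at least 3 of the 18 arrays. They were chosen with earlier results of these same data known, so their levels over the arrays are given as a description with no test.

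All cells came from Gata4-loxP mice, with the strain given as Gata4tm1.1Sad/J, so the controls carry the loxP-flanked Gata4 allele too. Wt cells received adenoviral nuclear beta-galactosidase, KO cells adenoviral Cre recombinase and OE cells retroviral mouse GATA4, so that Wt and OE differ in the kind of virus as well as in its cargo. Day 0 cells were kept in growth medium, and day 3 cells had spent 3 days in differentiation medium. Each of the 6 combinations has 3 arrays of total RNA, and nothing in the labels says that the 3 came from separate cultures, so p-values measure only the spread between these samples, which may be technical.

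Class I molecules show peptides made inside the cell to CD8 T cells. Proteasomes cut proteins into peptides, the TAP transporter moves the peptides into the endoplasmic reticulum, and there they are loaded onto a heavy chain paired with beta-2-microglobulin. Most cells make class I at a modest level, and interferons raise transcription of the heavy chains, the transporter and the immunoproteasome subunits together. Differentiated muscle fibres are known for low class I levels.

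Promoter sequence was read from RefSeq (GRCm38.p6), in a window from 250 bases before to 50 bases after the transcription start, for the 8 of 10 members that have an entry. Members H2-Q8 and Tap2 are named only. The stretches below are shown because H2-K1, H2-D1, H2-Q6 and B2m carry the same kinds of short motif. High levels on 3 arrays, named set D below, were not particular to these genes. Psmb9, Tap1 and Tapbp (ILMN_1226819) were highest there, and their windows held none of the 4 motifs searched. Any link between motif and level was not tested. The motifs were picked after the promoters had been seen. Capitals mark motif matches, 5′ to 3′ on the strand of the gene.
H2-K1 (chr17:34000418-34000470, minus strand): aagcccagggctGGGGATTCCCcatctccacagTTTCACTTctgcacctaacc
H2-D1 (chr17:35262911-35262963, plus strand): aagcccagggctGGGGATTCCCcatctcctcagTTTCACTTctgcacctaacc
H2-Q6 (chr17:35424665-35424717, plus strand): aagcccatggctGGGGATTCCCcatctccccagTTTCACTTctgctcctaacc
B2m (chr2:122147536-122147582, plus strand): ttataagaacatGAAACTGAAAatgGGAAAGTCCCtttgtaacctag
Psmb8 (chr17:34198086-34198118, plus strand): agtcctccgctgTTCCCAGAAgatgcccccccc
The first capitals in the 3 heavy-chain stretches match a kB-type motif (GGG, any 2 bases, TT, any base, CC), and the second match an interferon regulatory factor (IRF) core, AANNGAAA, on the opposite strand. B2m carries an interferon-stimulated response element (ISRE) motif (GAAA, any 2 bases, GAAA), which also contains the IRF core, and then a kB-type motif on the opposite strand. The Psmb8 capitals match an interferon-gamma activated site (GAS) motif, TTCNNNGAA.

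Over 53 bases, the H2-K1 and H2-D1 stretches were the same at 52 positions, and H2-Q6 was the same as each of the other two at 50. More than 1 start is listed for H2-K1, and the stretch lies 123 to 71 bases before the first. Searched on both strands, the IRF core was present in 23.9% of 32851 RefSeq promoter windows of the same length, the kB-type motif in 4.79%, the ISRE motif in 3.44%, the GAS motif in 8.3%, and IRF core and kB-type motif together in 1.16%. The windows of Tap1 and Psmb9, which are transcribed in opposite directions, share 275 bases (chr17:34187306-34187580), and neither these windows nor that of Tapbp held any of the 4 motifs. Apart from B2m (chr2:122147687-122153082), the 8 placed members lie on chromosome 17 between 33919478 and 35430055, within 1511 kb. A match is a description of letters and not evidence of binding.

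The array labels were checked before any comparison. Muscle creatine kinase (Ckm), made in differentiating muscle, was above 10 on 9 arrays (10.87 to 11.39, log2 intensity, the unit of every level below) and between 6.78 and 8.05 on the other 9. Of the 9 day 0 arrays, 3 had high Ckm (Wt replicate 1, KO replicate 1 and OE replicate 2), and of the 9 day 3 arrays, 3 had low Ckm (Wt replicate 2, OE replicates 2 and 3), so these 6 arrays go against their labelled day. The Gata4 probe was detected on 5 of 18 arrays, between 4.24 and 5.32, and so did not check the labels. It showed no rise with the OE label, with OE minus Wt at -0.45 on day 0 and -0.26 on day 3. The OE arrays were at 4.62, 4.74 and 4.32 on day 0 and at 4.48, 4.4 and 4.36 on day 3. Between 16974 and 19966 of the 45281 probes were detected on an array.

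Over 22209 probes of other genes, the 18 arrays fell into 6 sets of 3 that were each other's nearest (Pearson correlations across probes 0.9833 to 0.9938 within a set), and none of the sets matched a labelled group. Set D holds KO day 0 replicates 2 and 3 and Wt day 3 replicate 2. Set F holds Wt day 3 replicate 3 and KO day 3 replicates 1 and 2. Set A holds replicate 1 of Wt at both days with OE day 0 replicate 2, and set C holds KO day 0 replicate 1, KO day 3 replicate 3 and OE day 3 replicate 1. Set B holds Wt day 0 replicates 2 and 3 and OE day 3 replicate 3, and set E holds OE day 0 replicates 1 and 3 and OE day 3 replicate 2. Sets A, C and F are the 9 arrays with high Ckm. These sets come from the data and are not the study's groups, so only the levels on single arrays are given for them.

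Most member probes were highest on the set D arrays, where Ckm was low. On 8 probes, of H2-D1, H2-Q6, H2-Q8, Psmb8 and Psmb9, the set F arrays, where Ckm was high, were next highest. The H2-D1 probe ILMN_2944011 and the Psmb8 probe ILMN_2693940 did not have this order. For H2-K1 (ILMN_2588139) the order of sets D and F was mixed, and for Tap2 the set F arrays were highest. The set D arrays were also the highest for Usp18, a deubiquitinase-like enzyme that removes ISG15 and is induced by interferon, at 12.41, 12.4 and 12.52. Usp18 was at 9.94, 9.72 and 9.77 on the set A arrays and between 4.27 and 5.43 on the other 12, set F included. The set D arrays were the 3 highest of 18 on 15 of the 19 member probes, against 4.19% of all 22365 tested probes. The set D and F arrays together were the 6 highest on 10 of 19, against 0.411%, and on 8 of these all set D arrays came before the set F arrays (0.228%). Of these 10 probes, H2-K1 ILMN_2634603 was detected on the set D and F arrays only. H2-Q6 ILMN_2675337 was detected beyond them on only 1 array of set A and 1 of set C. Both probes therefore passed the filter through the set D and F arrays. On RNA of whole cultures, fewer cells of a type and less RNA per cell cannot be told apart.

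**Figure D1:**
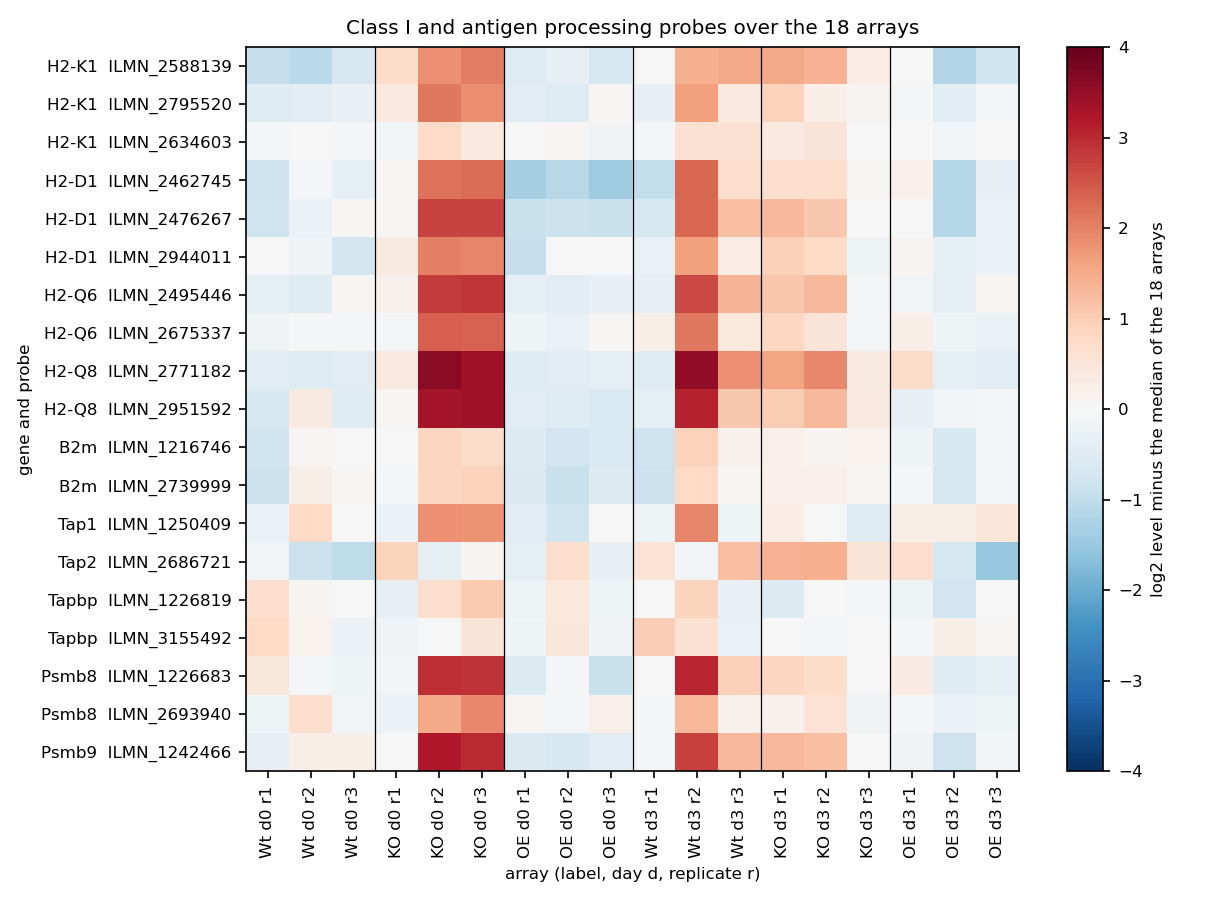
Level of each detected member probe (rows) on the 18 arrays (columns, in the order of the labelled groups), as log2 intensity minus that probe's own median over the 18 arrays. The columns of KO day 0 replicates 2 and 3 and Wt day 3 replicate 2 stand out on 15 of 19 probes.

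H2-K1 and H2-D1 are classical heavy chains, which present peptides to CD8 T cells. H2-K1 (probe ILMN_2588139, detected on all 18 arrays) was at 6.3, 6.15 and 6.56 on the Wt day 0 arrays, 7.94, 9.06 and 9.28 on the KO day 0 arrays and 6.72, 6.9 and 6.54 on the OE day 0 arrays. At day 3 it was at 7.21, 8.65 and 8.74 with Wt, 8.75, 8.62 and 7.53 with KO and 7.23, 6.04 and 6.43 with OE. The highest of these arrays were in sets D (8.65 to 9.28) and F (8.62 to 8.75), which overlapped, and the highest of the other 12 was 7.94 (KO day 0 replicate 1). KO and Wt arrays did not overlap at day 0.

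A second H2-K1 probe (ILMN_2795520) was detected on 10 arrays and ran from 4.22 to 6.82, with its highest levels on the set D arrays. Another (ILMN_2634603) was detected on 6 and ran from 4.3 to 5.23. H2-D1 (ILMN_2462745) was at 8.95, 9.72 and 9.41 on the Wt day 0 arrays, 9.83, 11.94 and 12.01 on the KO day 0 arrays and 8.45, 8.67 and 8.34 on the OE day 0 arrays. The day 3 levels were 8.8, 12.07 and 10.47 with Wt, 10.44, 10.46 and 9.82 with KO and 9.96, 8.63 and 9.43 with OE. The set D arrays were between 11.94 and 12.07, the set F arrays between 10.44 and 10.47, and the remaining 12 reached at most 9.96. A second H2-D1 probe (ILMN_2476267), between 7.41 and 11.27, had the same 6 arrays at its top. The probe ILMN_2944011 was detected on 16 arrays (4.33 to 7.28), and ILMN_2608090 was detected on none.

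H2-Q6 and H2-Q8 are heavy chains of the Q region, close relatives of the classical chains. H2-Q8 (ILMN_2771182) was at 4.29, 4.25 and 4.31 on the Wt day 0 arrays, 5.12, 8.33 and 8.11 on the KO day 0 arrays and 4.25, 4.3 and 4.36 on the OE day 0 arrays. After 3 days of differentiation medium the Wt arrays were at 4.24, 8.27 and 6.54, the KO arrays at 6.31, 6.65 and 5.08 and the OE arrays at 5.45, 4.33 and 4.26. It was detected on the 9 arrays of sets C, D and F and on none of the other 9, which lay between 4.24 and 4.36. H2-Q6 (ILMN_2495446) followed a like order, with 7.52, 7.6 and 7.36 on the set D arrays, 6.09, 5.85 and 6.03 on the set F arrays, and at most 4.91 on the other 12. The other probes of H2-Q8 (ILMN_2951592, 4.21 to 8.27) and H2-Q6 (ILMN_2675337, 4.31 to 6.96) were detected on 10 and 8 arrays. Class I genes are close copies of each other in sequence, probe specificity was not analysed here and the MHC haplotype of the mice is not given, so a probe named for 1 heavy chain may also read another.

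B2m is the light chain that every class I heavy chain needs to reach the cell surface. B2m (ILMN_1216746) was at 11.92, 12.79 and 12.76 on the Wt day 0 arrays, 12.7, 13.59 and 13.46 on the KO day 0 arrays and 12.17, 11.96 and 12.12 on the OE day 0 arrays. Day 3 arrays were at 11.89, 13.64 and 12.9 (Wt), 12.92, 12.84 and 12.87 (KO) and 12.56, 12.09 and 12.68 (OE). Again the set D arrays were the highest, between 13.46 and 13.64. The set A arrays were the lowest, between 11.89 and 11.96, although Usp18 was in its middle range there. The whole range of B2m was 1.76, the smallest among the 10 members' best-detected probes. The intensities reached 13480 on a linear scale. A second probe (ILMN_2739999) ran from 11.79 to 13.61, and ILMN_2670561 was not detected on any array.

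Tap1 and Tap2 are the chains of the peptide transporter, and Tapbp (tapasin) holds it next to the heavy chain. Tap1 was at 5, 6.06 and 5.27 on the Wt day 0 arrays, 5.02, 7.09 and 7.05 on the KO day 0 arrays and 4.82, 4.46 and 5.23 on the OE day 0 arrays. At day 3 it was at 5.07, 7.2 and 5.08 with Wt, 5.55, 5.25 and 4.77 with KO and 5.49, 5.53 and 5.74 with OE. The set D arrays were between 7.05 and 7.2, and no other array was above 6.06 (Wt day 0 replicate 2). The set F arrays, at 5.08, 5.55 and 5.25, lay among the low arrays, which differs in order from H2-K1. Tap2 was at 8.79, 8.04 and 7.89 on the Wt day 0 arrays, 9.77, 8.55 and 8.99 on the KO day 0 arrays and 8.5, 9.59 and 8.58 on the OE day 0 arrays. The day 3 levels were 9.43, 8.8 and 10.1 with Wt, 10.3, 10.32 and 9.4 with KO and 9.61, 8.2 and 7.39 with OE. Tap2 was highest on the set F arrays (10.1, 10.3 and 10.32), whereas the set D arrays (8.55, 8.99 and 8.8) lay below all 6 arrays of sets C and F and among the others. The order of Tap1 and Tap2 was therefore different over the same arrays.

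Tapbp had a narrow range. Its probe ILMN_1226819 ran from 4.53 to 6.35 with the set D arrays at 5.99, 6.35 and 6.19, next to 5.95 on Wt day 0 replicate 1. Its other probe (ILMN_3155492) ran from 4.46 to 5.7, was detected on 10 arrays and was highest on Wt day 3 replicate 1, so the probes of Tapbp did not give the same order.

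Psmb8 and Psmb9 replace constitutive catalytic subunits to form the immunoproteasome. Psmb8 (ILMN_1226683) was at 6.94, 6.41 and 6.31 on the Wt day 0 arrays, 6.36, 9.44 and 9.39 on the KO day 0 arrays and 5.93, 6.42 and 5.59 on the OE day 0 arrays. After 3 days of differentiation medium the Wt arrays were at 6.51, 9.54 and 7.43, the KO arrays at 7.33, 7.21 and 6.46 and the OE arrays at 6.82, 6.01 and 6.08. The set D arrays were at or above 9.39, the set F arrays between 7.21 and 7.43, and the remaining 12 at most 6.94. Psmb9 was at 5.62, 6.2 and 6.17 on the Wt day 0 arrays, 5.96, 9.14 and 8.93 on the KO day 0 arrays and 5.35, 5.29 and 5.49 on the OE day 0 arrays. Day 3 arrays were at 5.9, 8.68 and 7.24 (Wt), 7.25, 7.13 and 5.92 (KO) and 5.8, 5.11 and 5.84 (OE). On the set D arrays Psmb9 was at or above 8.68, on the set F arrays between 7.13 and 7.25, and on the remaining 12 at most 6.2. A second Psmb8 probe (ILMN_2693940, detected on 7 arrays) ran from 4.26 to 6.4.

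**Figure D2:**
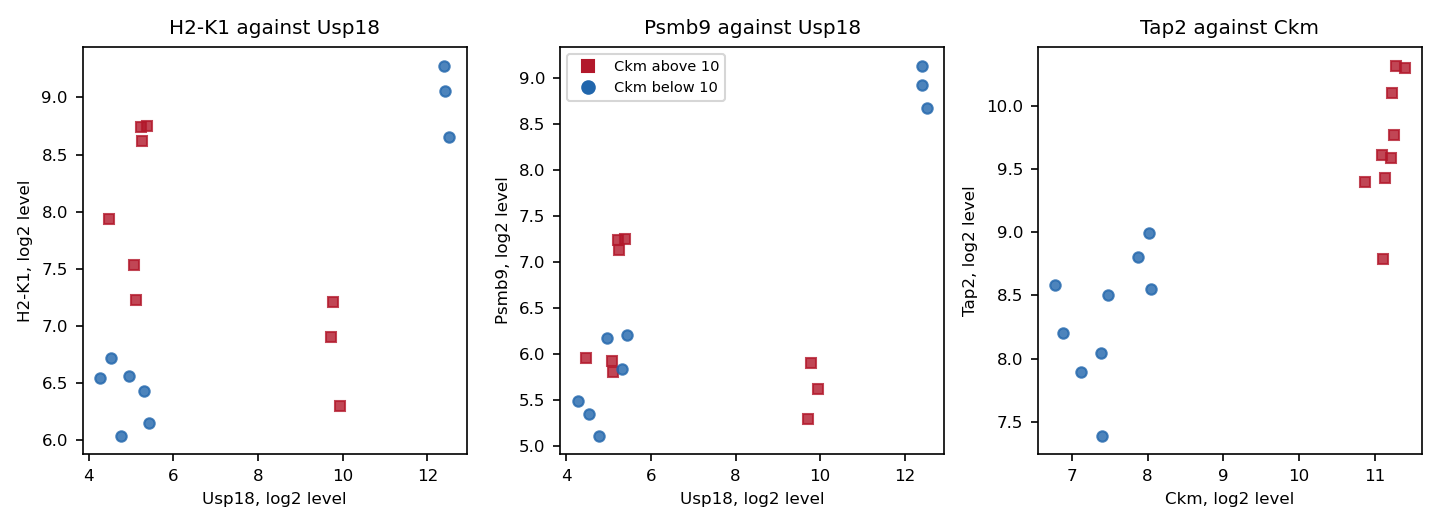
H2-K1 and Psmb9 against Usp18, and Tap2 against Ckm (both axes log2 intensity), on the 18 arrays, with squares for arrays with Ckm above 10 and circles for Ckm below 10. The 3 arrays with Usp18 above 12 have the highest Psmb9, while the 3 arrays with Usp18 between 9.72 and 9.94 do not stand above the rest.

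Among the 9 arrays with high Ckm, the members did not share 1 low level. The set F arrays were each above the 6 other high-Ckm arrays on 12 of 19 probes, against 7.56% of all tested probes. These 12 were probes of H2-D1, H2-K1, H2-Q6, H2-Q8, Psmb8, Psmb9 and Tap2, and the probes of B2m, Tap1 and Tapbp were not among them. The 12 include H2-K1 ILMN_2634603 and H2-Q6 ILMN_2675337, which passed the filter through the set D and F arrays. Psmb8 ILMN_2693940, also included, was undetected on all arrays of sets A and C and detected on only 2 set F arrays. The set F arrays were each above the 3 set A arrays on 17 of 19 probes, against 19.8%. The same limits of filter and detection hold for this count. For Tap1 the lowest set F array was at 5.08 and the highest set A array at 5.07. On the set F arrays 18 of the 21 member probes were detected, as against 19 on the set D arrays and 10 to 15 on the other 12. On 0 of 19 probes were the 9 high-Ckm arrays all above the other 9 (8.99% of all probes). For Tap2, 8 of the 9 were, and Wt day 0 replicate 1 (8.79) lay just below KO day 0 replicate 3 (8.99) and Wt day 3 replicate 2 (8.8). With Ckm high in both, the set F arrays had lower Usp18 and higher H2-K1 than the set A arrays. With the authors' processed values, the set D arrays were the 3 highest on 15 probes (4.61% of all), sets D and F were the 6 highest on 12 (0.456%), and the set F arrays stood above the 6 other high-Ckm arrays on 14 (8.09%).

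Other genes of the pathway were taken from lists of known members, and none of their genes passed the threshold in any of the 9 comparisons below. Of 22 other class I and class I-like heavy chains, 10 were measured, and 5 had the set D arrays as their 3 highest. Over all 22365 tested probes this share was 4.19%, which also stands beside the counts of the lists below. H2-Q5 (6.63 to 10.42) and H2-T23 (6.6 to 9.93) were also highest on the set D arrays but, in another order than H2-K1, came next on the set A arrays. There H2-Q5 was at 9.79, 9.44 and 9.63, against 9.01, 8.84 and 8.74 on the set F arrays. H2-T23 was at 8.81, 8.79 and 8.86, against 8.7, 8.47 and 8.6. H2-Q7 ran from 5.24 to 8.3 and H2-T10 from 5.39 to 7.86. Of the 10 measured peptide loading and trimming genes, 0 had the set D arrays as their 3 highest, and the widest ranges were those of the chaperone Hspa5 (5.83 to 7.33) and the peptidase Tpp2 (7.7 to 9.1). Of the 3 measured other inducible proteasome subunits, 1 did: Psmb10, the remaining catalytic subunit of the immunoproteasome, between 8.63 and 9.79. Of 14 measured constitutive proteasome genes, 0 did, and Psmb5, the subunit that Psmb8 replaces, ran from 7.69 to 9.23 and was highest on the set F arrays.

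Of 12 measured transcription factors of class I genes, 6 had the set D arrays at the top (4.19% of all tested probes). Stat2 (4.36 to 8.3) and Irf9 (5.66 to 8.96) are transcription factors of the type I interferon response. Nlrc5, a class I transactivator, was at 6.93, 6.89 and 7.33 on the set D arrays and at 4.44, 5.13 and 5.07 on the set F arrays. Irf1, which binds IRF motifs, ran from 8.07 to 11.05 and was at 8.35, 8.4 and 8.42 on the set F arrays. Of 9 measured genes for interferon, its receptors, kinases and their inhibitors, 2 had the set D arrays at the top. Jak2, a receptor-associated kinase, ran from 6.79 to 8.66. Ifnb1, the gene of interferon beta, was detected on the set D arrays only, at 5.23, 4.91 and 5.51, and so passed the filter through them. Socs3, an inhibitor of the pathway (6.38 to 8.09), was highest on Wt day 3 replicate 2, a set D array. OE day 0 replicate 3 (8.02) and OE day 3 replicate 2 (8.01) came next. The kinase Jak1 (5.01 to 6.38) was highest on KO day 3 replicate 1, of set F. Its 3 highest arrays included KO day 0 replicate 2, of set D.

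Markers of other cell types were read beside these levels. Of 12 leukocyte markers, 10 had a probe and 4 passed the filter (Cd14, Csf1r, Cd3e and Lyz2). Their mean level over the 4 was between 4.64 and 4.88 on KO day 0 arrays, 4.65 and 4.86 on Wt day 3 arrays, and 4.51 and 4.93 over all 18, and between 0 and 3 of the 4 were detected on an array. On the set D arrays this mean was 4.64, 4.88 and 4.65, but the 4 did not move together. Cd14 was at 5.34, 5.43 and 5.31 there, against 4.26 to 5.71 over all 18. Cd3e was at 4.57, 4.48 and 4.46 there, against 4.33 to 5.37. Csf1r was between 4.3 and 4.95 on the set D arrays, and Lyz2 between 4.34 and 4.68. Of 10 class II genes, 5 passed, and their mean was between 5.31 and 5.46 on the set D arrays, inside the 4.9 to 5.69 over all 18. For 1 of the 5 the set D arrays were the 3 highest, Cd74, the class II invariant chain, which was detected on those 3 arrays only (5.08, 5.03 and 5.23) and so passed the filter through them. The mean of 5 fibroblast markers was between 6.05 and 6.23 on the set D arrays and between 6.83 and 7.03 on the set F arrays, over a range of 6.03 to 7.2. Its members did not move together. Thy1 was at 8.39, 8.39 and 8.43 on the set D arrays and 8.71, 8.87 and 8.7 on the set F arrays, was higher still on the set E arrays (9.35, 9.36 and 9.63), where H2-K1 and H2-D1 were low, and was at most 7.14 on the other 9. Dcn was lowest on the set D arrays (5.61, 5.34 and 5.51). Of 5 endothelial markers, 3 passed the filter. Tek ran from 4.58 to 7.49 and was at or above 6.89 on the arrays of sets A and E and at most 5.64 on the other 12, and it differed by 1.52 for OE minus Wt at day 0. Pecam1 and Kdr were detected on 4 and 5 arrays and reached 5.22 and 4.98. Of 6 myoblast markers, all but Pax7 passed, with Myod1 between 10.1 and 11.15 and Des between 12.41 and 14.02, both detected on all 18 arrays. Myf5 was dim, between 4.37 and 5.53, and was detected on 13 arrays. The part of other cell types in the levels of class I genes was not tested.

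The labelled groups were then compared over all 22365 tested probes in 1 limma fit (moderated statistics, Benjamini-Hochberg adjustment). No probe passed an adjusted p of 0.05 in any of the 9 comparisons (0%). All comparisons of KO or OE with Wt share the Wt arrays of that day. Because of the 6 arrays above, each labelled group except the KO day 3 group mixed high-Ckm with low-Ckm arrays, and the values below hold for the labels as given.

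**Figure D3:**
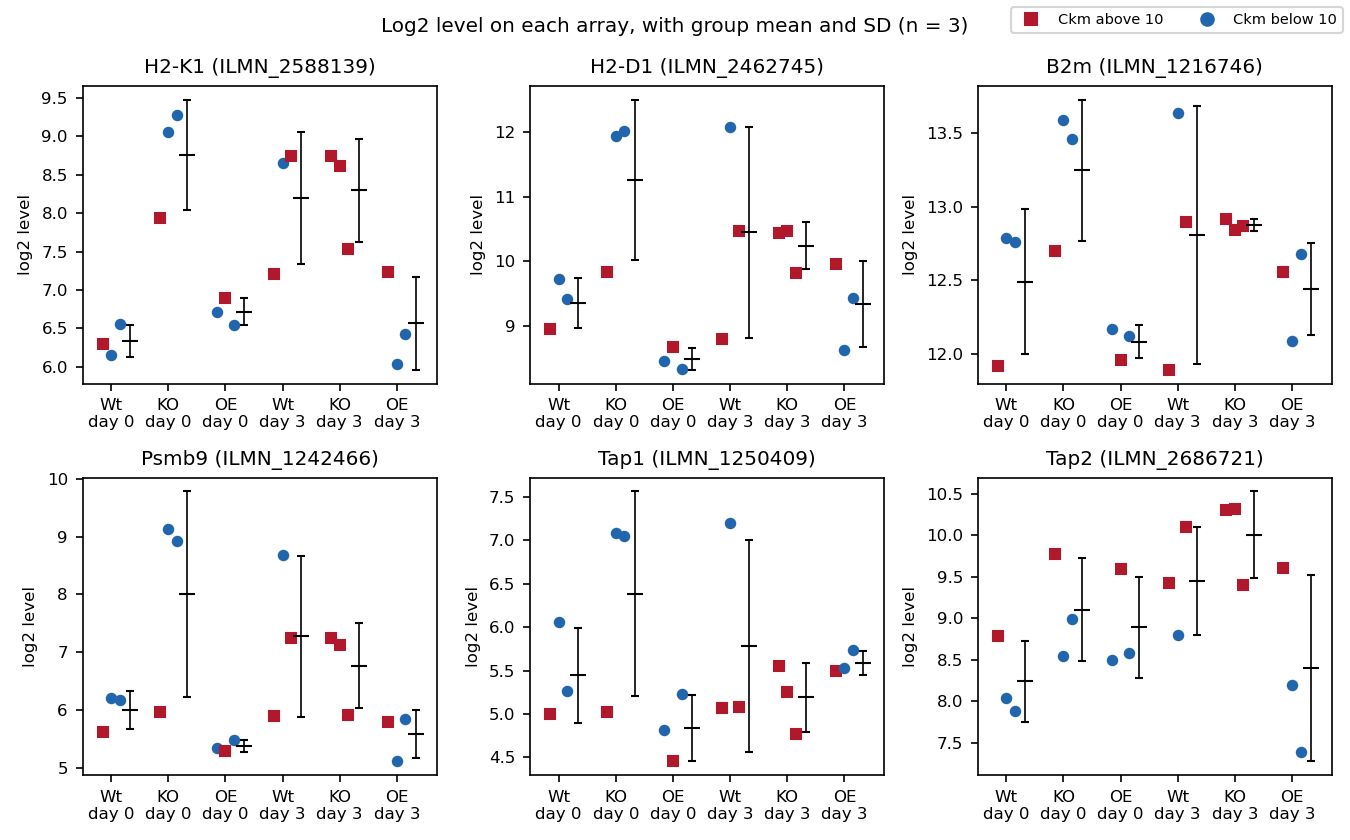
Level of 6 members (vertical axes, log2 intensity) by labelled group (horizontal axis), with a point for each array (squares for Ckm above 10, circles for Ckm below 10) and the group mean with its SD (n = 3). Within a group, arrays of 1 label often lie far apart, as for Psmb9 at Wt day 3 (5.9, 8.68 and 7.24).

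KO against Wt at day 0 asks what loss of the loxP-flanked Gata4 allele does in growth medium. The fitted difference was above 0 on 18 of 19 member probes, with a median of 1.72 against -0.02 over all probes. H2-Q8 was at 7.19 ± 1.79 (SD, n = 3) in KO and 4.28 ± 0.03 (SD, n = 3) in Wt, a fitted difference of 2.9 ± 0.87 (SE) with limma's adjusted p at 0.65. It was detected on none of the 3 Wt arrays, so this is at least 5.51-fold higher in KO, with the lowest level of any detected probe on each array standing in for the undetected ones. This bound was 3.71-fold without KO replicate 2 and 11.3-fold without KO replicate 1, and the fitted difference was 1.32 with the authors' processed values. H2-K1 was at 8.76 ± 0.72 against 6.34 ± 0.21, a difference of 2.43 ± 0.45 with limma's adjusted p at 0.53. KO and Wt arrays did not overlap on 7 of 19 probes where KO was higher (4.55% of all probes), of H2-D1, H2-K1, H2-Q6 and H2-Q8, and on 0 where it was lower (5.86%). For 1 of the 7, H2-Q6 ILMN_2675337, KO replicate 1 (4.54) and Wt replicate 3 (4.53) were both undetected and so have no order. At an unadjusted p under 0.05, 11 member probes passed, as did 1414 of all probes (6.32%). KO replicates 2 and 3 are set D arrays, and Wt replicate 1 and KO replicate 1 have high Ckm. Without the 6 arrays whose Ckm goes against the day, 906 probes passed the adjusted threshold, 13 of them member probes, in a fit of 12 arrays chosen by a measured level, so that its p-values are a description. With array weights 1316 probes passed, 13 of them member probes, and without KO replicate 1, 27 passed, 3 of them member probes.

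KO against Wt at day 3 had a median of -0.27 over the member probes (0 over all), with 4 of 19 above 0. The sign of this median rested on Wt replicate 2, without which it was 0.27, and it was -0.59 without Wt replicate 1. Psmb8 differed by -0.82 ± 0.75 (limma's adjusted p 0.96) and Tap1 by -0.6 ± 0.57 (limma's adjusted p 0.96). KO and Wt overlapped on all 19 probes (KO higher without overlap on 4.68% of all probes, lower on 4.35%). Both named differences were within the spread of the arrays, and without Wt replicate 2, a set D array, they were at 0.03 and 0.11. At an unadjusted p under 0.05, 0 member probes passed and 574 of all (2.57%).

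OE against Wt, by the labels the comparison of added GATA4, had no member past the threshold at either day. At day 0 the median over the members was -0.19 (-0.01 over all), with H2-D1 at -0.87 ± 0.67 and Tap2 at 0.65 ± 0.52 (limma's adjusted p 1 for both). At day 3 all 19 probes were lower in OE, with a median of -1 (0.01 over all). Psmb9 was at 5.58 ± 0.41 (SD, n = 3) in OE and 7.27 ± 1.39 (SD, n = 3) in Wt, a difference of -1.69 ± 0.73 with limma's adjusted p at 0.93, and H2-Q8 differed by -1.67 ± 0.87 (limma's adjusted p 0.93). At an unadjusted p under 0.05, 0 and 2 member probes passed at day 0 and day 3, as did 1155 (5.16%) and 883 (3.95%) of all. OE was lower without overlap on 3 of 19 probes at day 0, of H2-D1 and Psmb9 (5.78% of all), and on 1 at day 3, that of Psmb9 (2.48%), and higher on 0 at both days (4.96% and 3.38%). Without Wt replicate 2 the day 3 median was -0.3, Psmb9 was at -0.98 and H2-Q8 at -0.71.

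**Figure D4:**
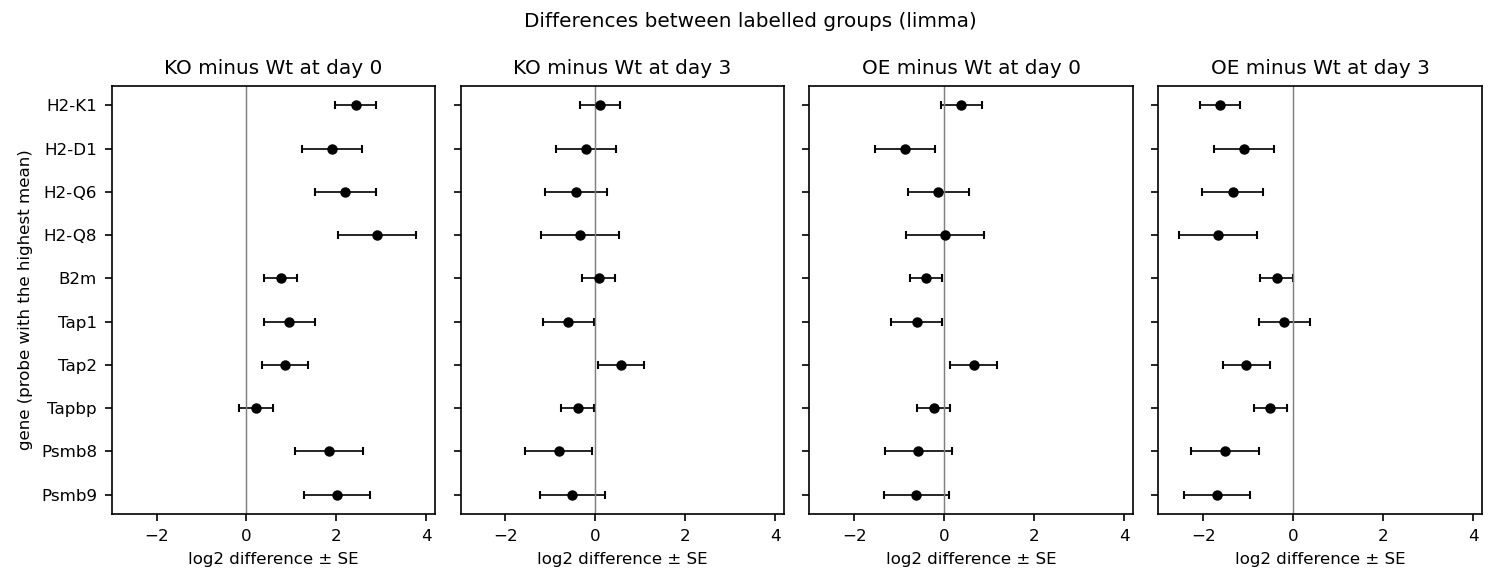
Fitted log2 difference (horizontal axis) of each of the 10 members (vertical axis, probe with the highest mean) between KO or OE and Wt at each day, with bars for the standard error. All 10 points lie above 0 for KO minus Wt at day 0, and 0 of 10 do for OE minus Wt at day 3.

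The changes over time were taken within each label. In Wt, the median change from day 0 to day 3 was 1.02 (-0.02 over all), with 18 of 19 probes higher. H2-Q8 differed by 2.07 ± 0.87, at least 3.08-fold on the same bound with 2 of 3 day 3 arrays detected but 1.59-fold without Wt day 3 replicate 2, and H2-K1 by 1.86 ± 0.45 (limma's adjusted p 0.9 for both). The days did not overlap on 3 of 19 probes, of H2-K1, H2-Q6 and Tap2, all higher at day 3 (2.81% of all probes, and 4.11% for lower). For Tap2 the lowest day 3 array was at 8.8 and the highest day 0 array at 8.79. The H2-Q6 probe (ILMN_2675337) was undetected on all Wt day 0 arrays and at 4.81 on Wt day 3 replicate 1. Without Wt day 3 replicate 2 the median was 0.42. In KO, the median change was -1.01 (0 over all), with Psmb8 at -1.39 ± 0.75 and Psmb9 at -1.24 ± 0.73 (limma's adjusted p 0.5 for both) and overlap on all 19 probes (9.27% of all were higher and 7.96% lower without it). Without KO day 0 replicate 1 these were -1.54 for the median, -2.41 for Psmb8 and -2.27 for Psmb9, and without KO day 0 replicate 2 they were -0.62, -0.87 and -0.68. With array weights, 10052 of all probes and 16 of the member probes passed in KO. In OE, the median was 0.21 (0.01 over all), with H2-D1 at 0.86 ± 0.67 and Tap1 at 0.75 ± 0.57 (limma's adjusted p 1 for both). Day 3 was higher without overlap on 2 of 19, of H2-Q8 and Tap1 (5.75%), and lower on 0 (4.92%), and levels of undetected probes, as of H2-Q8 on most OE arrays, have no order. Of the members, 5, 1 and 0 probes passed an unadjusted p under 0.05 in Wt, KO and OE, as did 925 (4.14%), 1886 (8.43%) and 1067 (4.77%) of all.

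The difference of the changes over time was tested directly. KO minus Wt had a median of -2 (0.03 over all) and all 19 probes below 0, with H2-Q8 at -3.24 ± 1.23 and Psmb8 at -2.67 ± 1.06 (limma's adjusted p 1 for both). OE minus Wt had a median of -0.88 (0.01 over all), with H2-K1 at -2.01 ± 0.63 and Tap2 at -1.69 ± 0.74 (limma's adjusted p 0.8 for both). At an unadjusted p under 0.05, 11 and 2 member probes passed, as did 824 (3.68%) and 1384 (6.19%) of all. With array weights, 168 probes passed for KO minus Wt, 3 of them member probes. Without Wt day 3 replicate 2 the medians were -1.3 and -0.21.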

How the data were processed

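Total RNA was measured on 18 Illumina MouseWG-6 arrays, 3 in each of 6 groups taken from the titles. The main table, as deposited by the authors, gives a linear intensity per probe before any normalisation or background subtraction. The table also holds, per the file headers, a detection p-value per probe, which moved in steps that correspond to 936 negative controls. A further deposited table holds processed intensities (column medians 105.1 to 110.7), made by a method that no source used here states. Each of its columns ranks the probes as the main table does for that array (Spearman correlation 1).

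Background correction and quantile normalisation used neqc in limma 3.58.1 (R 4.3.3, offset 16), with background inferred from the detection p-values. Probes with detection p below 0.05 on at least 3 arrays were kept (22365 of 45281). Probes not detected have no order among themselves. Of all probes, 34885 carried 1 gene symbol, 18 several, and symbols were updated through Entrez identifiers to RefSeq for 34807.

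All 18 arrays entered 1 linear model with a mean for each labelled group (12 residual degrees of freedom), and the p-values of each of 9 comparisons were Benjamini-Hochberg adjusted over all kept probes, with 0.05 as the threshold. The fit was tested on simulated data. The alternatives were 27 in number: other background corrections, filters, array weights, the replicate block, only the groups compared, 1 probe per gene, the authors' processed values and each array left out. A fit without 6 arrays was added after seeing the data. The number of arrays limits the precision.

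The members and lists were chosen with earlier results of these data known. The text names all member probes by value and, per comparison, the 2 members with the largest absolute difference, taking each member's kept probe with the highest mean. From other lists it names at most 4 genes with the widest range, and Cd74, Myod1 and Myf5 were chosen after their values were seen. The Ckm level of 10 and the 6 sets of arrays were set after seeing the data.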

Additional observations from a re-analysis of the deposited data

How the results depend on the processing

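No probe passed the threshold in any of the 9 comparisons, so a count of 0 under an alternative says nothing about stability; 8 of 247 counts were above 0. Differences of named members kept direction and side of the threshold in 478 of 486 fits, all 478 on the side that does not pass. Many of these fits could not change a difference. Leaving out an array of a group not compared, the replicate block and fitting only the groups compared leave it the same by construction. The count of 478 therefore says little about stability. With array weights, 1316 probes passed for KO minus Wt at day 0 (13 of them member probes), 850 for OE minus Wt at day 0, 10052 for the KO change over time (16 member probes) and 168 for its difference from Wt (3 member probes), all against 0. Psmb8 was then at -2.06 and Psmb9 at -1.79 over time in KO, and the difference of H2-Q8 at day 0 was 3.73. Leaving out 1 array gave 0 to 27 probes for KO minus Wt at day 0, with 27 (3 of them member probes, of H2-K1 and H2-Q6) without KO day 0 replicate 1, and 0 to 1 for the OE change over time. It gave -1.48 to 0.03 for Psmb8 and -0.95 to 0.11 for Tap1 in KO minus Wt at day 3, with the sign turned without Wt day 3 replicate 2. Member medians over these fits were 1.32 to 2.38 for KO minus Wt at day 0 and -0.59 to 0.27 at day 3, -0.27 to -0.12 for OE minus Wt at day 0 and -1.22 to -0.3 at day 3, and 0.42 to 1.37, -1.54 to -0.62 and 0.07 to 0.33 for the changes over time in Wt, KO and OE. Those of the KO and OE differences in change were -2.52 to -1.3 and -1.31 to -0.21. Without OE day 0 replicate 2, Tap2 in OE minus Wt at day 0 was 0.3, and without OE day 3 replicate 1, H2-D1 over time in OE was 0.54.

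The KO minus Wt median at day 0 was 0.99 with the normal-exponential model fitted to the signal, 0.75 with no background correction and 0.71 with the authors' processed values, and the median KO minus Wt difference of the changes over time was -1.1, -0.8 and -0.75. Less background subtraction compresses differences of dim probes by construction. Without the 6 arrays whose Ckm goes against the labelled day, chosen after seeing the data and by a measured level, 906 probes passed for KO minus Wt and 578 for OE minus Wt at day 0, and the OE minus Wt median at day 3 was -0.13. Except where a construction is named, the cause was not tested.

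The replicate numbers did not pair the arrays: deviations from group means correlated with a median of 0 over 45 pairs of the same number and 0.02 over 90 pairs of other numbers, and 6 of 18 arrays correlated best with their own number. With the replicate block, 0 probes passed in each of the 9 comparisons. The KO minus Wt median at day 0 was 1.72, the same by construction, because every group holds each replicate number.

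Dim probes limit the lower end. The probes of H2-Q6 and H2-Q8 and the second Psmb8 probe were not detected on 8 or more arrays. The same held for the H2-K1 probes ILMN_2795520 and ILMN_2634603 and the Tapbp probe ILMN_3155492. The differences of all these probes are compressed there.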

Other observations

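Of 11911 genes other than the members with a probe past the filter, those whose pattern over the 18 arrays was nearest to each of 3 members, by the root mean square difference of levels after removing each gene's own mean, were as follows. Nearest to H2-K1 were H4c9 (0.44), H4c18 (0.45), Oas1d (0.45), H2-Q7 (0.46) and H4c6 (0.46), against a median of 1.14 over all genes. The H4 histone genes are near-identical copies, so their probes may share targets. Nearest to B2m were Zfand2a (0.19), Rgs3 (0.2), Grn (0.2), Trim39 (0.21) and Cyp3a13 (0.21), against a median of 0.63. Nearest to Tap1 were Irf1 (0.28), Bbc3 (0.29), Snhg16 (0.31), Ddit3 (0.33) and Snhg17 (0.33), against a median of 0.85. These distances are descriptions with no test.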
